A study of Rattus norvegicus with 4 samples.

Results

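The broad p300-rich domains of rat oligodendrocyte lineage cells are 266 windows of 500 kb, out of 5083 windows with enough reads on chromosomes 1 to 20 (5.23%). They were chosen by measured values: in each window the scaled reads of p300 exceeded those of Hdac3 by more than 1.2 times in precursor cells and again at the later stage. The ratios below therefore describe the windows and are not evidence for them. Chromatin immunoprecipitation sequencing (ChIP-seq) had been done with an antibody to Hdac3 and one to p300, each in oligodendrocyte precursor cells (OPCs) and in differentiating oligodendrocytes labelled d3. All cells were primary Sprague Dawley rat cells, isolated by differential detachment from the cortices of pups on postnatal day 2, with no genetic change named in the labels. OPCs were taken directly or kept in Sato medium with the mitogens PDGF-AA (10 ng/ml) and bFGF (20 ng/ml). Differentiation took place in Sato medium with thyroid hormone T3 (15 nM) and ciliary neurotrophic factor (10 ng/ml). Each of the 4 groups held 1 library, so there was no spread between replicates to set a difference against, and no input library was used here. The labelled cell types could not be checked against marker genes, because no gene positions of the files' rn4 build were at hand.

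The protein p300 is a histone acetyltransferase and transcriptional coactivator that is recruited to enhancers and promoters by DNA-bound factors. Hdac3 is the catalytic subunit of the NCoR and SMRT corepressor complexes and removes acetyl groups from histones. Turnover of histone acetylation by such enzymes takes part in the passage of oligodendrocyte precursors to myelin-forming cells.

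On chromosomes 1 to 20 the Hdac3 libraries held 4163537 reads (OPCs) and 8556198 reads (d3), and the p300 libraries 3364825 and 4569985 reads. A window's level is given as reads per 1000000 reads of its library (RPM). Where a pair of values is given for a protein, the OPC value stands before the d3 value. Of 5127 windows with any read, 44 had under 100 reads in at least 1 library and were left out. Intervals in brackets are exact 95% intervals and cover counting error only.

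The p300/Hdac3 ratio exceeded 1.2 in 449 windows in OPCs (8.83% of windows) and in 652 at d3 (12.8%). The 266 that passed at both stages were 59.2% of the OPC windows and 40.8% of the d3 windows, while 183 passed in OPCs alone and 386 at d3 alone. The threshold is relative to the library totals: with libraries scaled by their median window instead, 585 windows passed at both stages, the 266 among them. The median ratio of the 266 was 1.24 in OPCs, with a range of 1.2 to 1.72, and 1.31 at d3, with a range of 1.2 to 1.96. Over all usable windows the medians were 0.974 and 0.934. In all 266 the interval of the ratio lay above 1 at both stages, but it lay above 1.2 at both in only 26 of them. Across the 5083 windows the ratios of the stages followed each other (Pearson r = 0.81 and Spearman rho = 0.84 on the log2 scale), where neighbouring windows are not independent and the stages share each antibody.

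**Figure D1:**
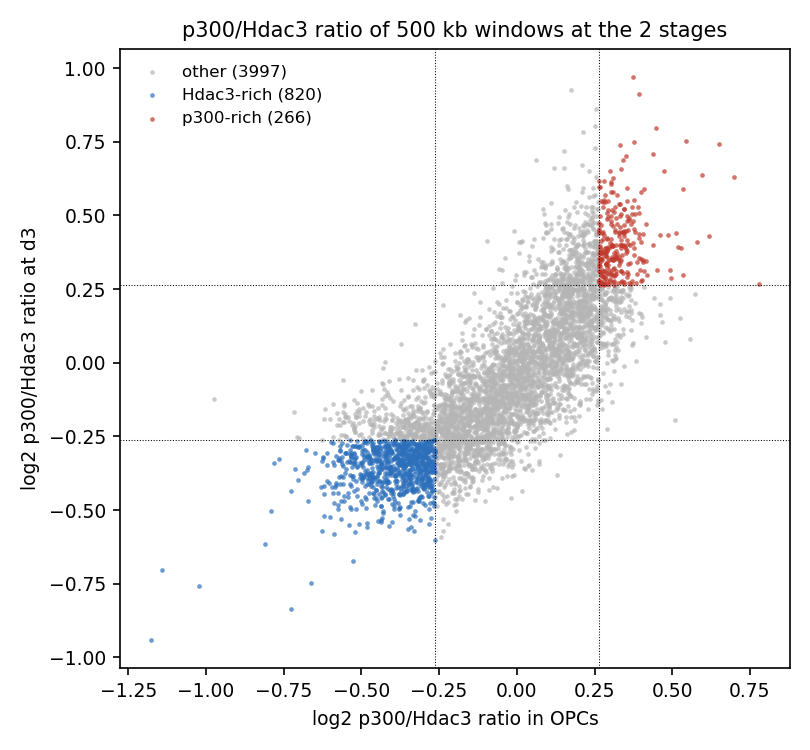
Each point is a 500 kb window, with the log2 p300/Hdac3 ratio in OPCs on the x axis and at d3 on the y axis; dotted lines mark ratios of 1.2 in either direction. The 266 p300-rich windows form the upper right corner of one continuous cloud of 5083 windows, with 820 windows rich in Hdac3 at both stages at the lower left.

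The cloud had no gap at the threshold. Just inside it lay chromosome 14 at 86000001 to 86500000, with ratios of 1.215 and 1.2002, chromosome 3 at 159500001 to 160000000 (1.242 and 1.2005), chromosome 3 at 76500001 to 77000000 (1.2007 and 1.292), chromosome 5 at 154500001 to 155000000 (1.201 and 1.24) and chromosome 5 at 161000001 to 161500000 (1.201 and 1.511). Just outside lay chromosome 6 at 91500001 to 92000000 (1.19999 and 1.24), chromosome 1 at 206000001 to 206500000 (1.1991 and 1.273), chromosome 1 at 79000001 to 79500000 (1.199 and 1.307), chromosome 5 at 141000001 to 141500000 (1.1989 and 1.211) and chromosome 10 at 13000001 to 13500000 (1.1987 and 1.46). The interval of the first, 1.12 to 1.29 at d3, was far wider than these distances, so the membership of a single window near the threshold is not firm. When members were chosen on plus-strand reads alone, 279 windows qualified, and the minus-strand reads put 107 of them (38.4%) above 1.2 at both stages and 274 (98.2%) above 1 at both. Chosen on the minus strand, 261 windows qualified, of which the plus strand put 107 (41.0%) above 1.2 and 257 (98.5%) above 1. The excess of p300 thus held in reads that had no part in the choice, with median ratios on the unused strand of 1.19 in OPCs and 1.3 at d3 in the first case and 1.19 and 1.31 in the other. The strands of a library come from 1 immunoprecipitation and are not replicates.

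The highest combined ratio belonged to chromosome 7 at 22500001 to 23000000, where Hdac3 stood at 241 RPM in OPCs and 240 RPM at d3, and p300 at 378 and 402 RPM. Both stages gave a like excess there, with ratios of 1.57 (1.44 to 1.71) and 1.67 (1.57 to 1.78). On chromosome 16 at 1000001 to 1500000 Hdac3 measured 268 and 271 RPM and p300 435 and 421 RPM, again nearly equal between the stages, for ratios of 1.62 and 1.55. On chromosome 9 at 88500001 to 89000000 Hdac3 measured 242 and 273 RPM and p300 366 and 424 RPM (ratios 1.51 and 1.56).

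In other leading windows the excess was larger at d3. Chromosome 3 at 147000001 to 147500000 had 176 and 172 RPM of Hdac3 and 228 and 337 RPM of p300, so the ratio was 1.29 (1.17 to 1.43) in OPCs and 1.96 (1.82 to 2.10) at d3. Chromosome 1 at 262000001 to 262500000 had 251 and 284 RPM of Hdac3 and 329 and 534 RPM of p300, with ratios of 1.31 and 1.88. That d3 value of p300 was the highest among the 266 windows. On chromosome 20 at 43500001 to 44000000 Hdac3 measured 311 and 297 RPM and p300 424 and 516 RPM (1.36 and 1.74), and on chromosome 10 at 102500001 to 103000000 Hdac3 measured 283 and 304 RPM and p300 384 and 497 RPM (1.36 and 1.63).

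In the remaining 3 of the 10 leading windows the excess was also larger at d3. Hdac3 there was at 0.821, 0.906 and 0.933 times its OPC level, and the interval of the last, 0.857 to 1.02, includes 1. An Hdac3 value below 1 was not limited to these windows. Chromosome 20 at 43500001 had 0.954 times (0.892 to 1.02), an interval that also includes 1. Chromosome 1 at 95000001 to 95500000 had 287 and 236 RPM of Hdac3 and 373 and 397 RPM of p300 (1.3 and 1.68). Chromosome 3 at 157500001 to 158000000 had 262 and 237 RPM of Hdac3 and 382 and 400 RPM of p300 (1.46 and 1.68). Chromosome 1 at 80000001 to 80500000 had 197 and 184 RPM of Hdac3 and 273 and 288 RPM of p300 (1.39 and 1.57).

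Within a window the excess was spread out. Of the 255 members in which all 5 pieces of 100 kb held reads in every library, 205 (80.4%) had p300 above Hdac3 at both stages in every piece, and none of these 255 had fewer than 3 such pieces. In the same count over the other windows 281 of 4564 (6.16%) had it in every piece and 2349 (51.5%) in none. Windows that passed at 1 stage alone lay between, with 52 of 168 (31.0%) for OPCs and 148 of 370 (40.0%) for d3 in every piece. At 10 kb, with the stages added, p300 exceeded Hdac3 in a median of 86.5% of the pieces of a member, in a range of 66.0% to 100%, against 40% in the other windows. The medians were 76% in windows that passed in OPCs alone and 80% in those that passed at d3 alone. The rule used the same reads, so these values show the breadth of the excess and not its presence.

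Called narrow sites held a small part of the members' p300 reads. Without every called 1 kb site and the bins beside it, which held 0.468% of the members' p300 reads in OPCs and 0.500% at d3, 252 of the 266 windows were still above 1.2 at both stages, and the medians were 1.24 and 1.31. The 14 that were not included the 3 members with the highest share of p300 d3 reads in 1 bin. On chromosome 18 at 24000001 to 24500000 a single 1 kb bin held 12.0% of the p300 reads at d3, against a median of 0.812% over the members. The others were chromosome 3 at 8500001 to 9000000 and chromosome 11 at 31000001 to 31500000. Some of the 14 held no called site and stood barely above the threshold with all reads. An example is chromosome 14 at 86000001 to 86500000, with a d3 ratio of 1.2002. Sites too weak to be called were not removed, so the part of all narrow sites in the excess was not measured.

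The windows lay in groups along the chromosomes. Of the 266, 128 (48.1%, 42.0 to 54.3%) had another p300-rich window directly beside them, while 356 of the 4817 other windows (7.39%) did. The 266 windows made up 194 separate runs, of which 138 were single windows, 43 spanned 1000 kb, 10 spanned 1500 kb and 3 spanned 2000 kb. The distance from 1 member to the next on a chromosome had a median of 1.5 Mb, with a longest gap of 82.5 Mb. It was at most 2 Mb in 135 of 246 cases (54.9%).

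**Figure D2:**
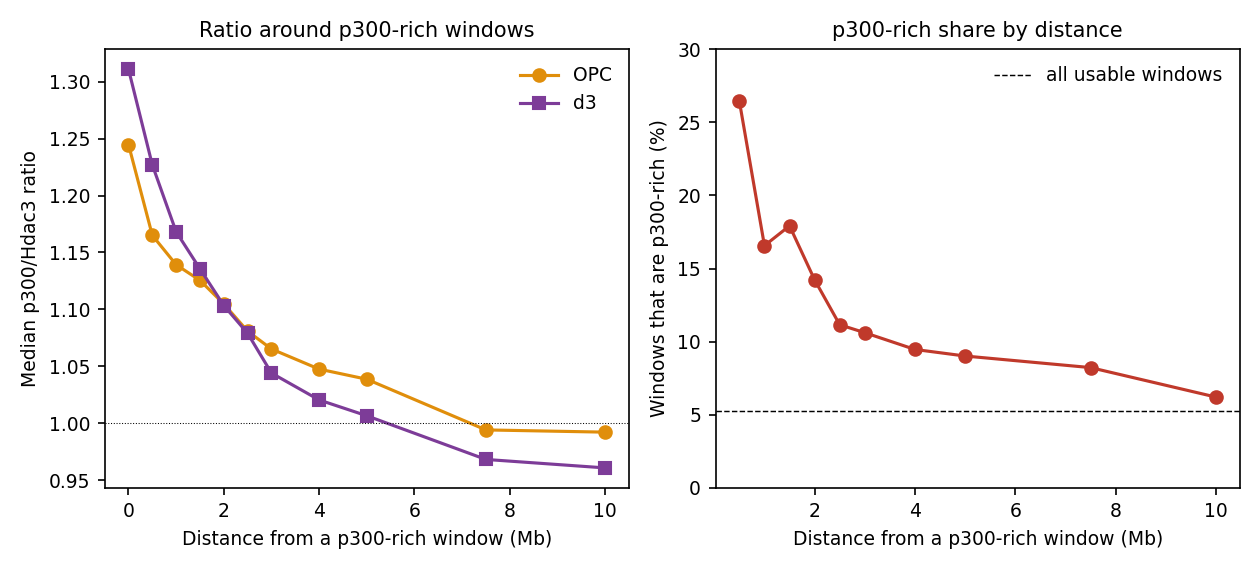
The left panel plots the median p300/Hdac3 ratio of windows against their distance in Mb from a p300-rich window on either side, for OPC and d3; the right panel plots the percentage of those windows that are p300-rich, with the level of all usable windows dashed. The medians at 0 Mb are fixed by the choice of windows; outside them the ratio declines from 1.17 and 1.23 at 0.5 Mb to 0.992 and 0.961 at 10 Mb.

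The p300 excess reached beyond the windows that were chosen. The 356 neighbouring windows that were not themselves p300-rich had median ratios of 1.13 in OPCs and 1.17 at d3. Windows at 1 Mb that were not members had medians of 1.12 and 1.13, and at 2 Mb of 1.07 and 1.07. At 5 Mb they had reached 1.004 and 0.978, still above the medians of all windows. The share of p300-rich windows was 26.4% at 0.5 Mb and 9.02% at 5 Mb, and at 10 Mb it was 6.21%, near the 5.23% of all windows. The d3 median was above the OPC median at the members and up to 1.5 Mb from them, and below it from 2 Mb on; among windows that were not members it was below from 1.5 Mb on.

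The longest runs held 4 windows each. On chromosome 1 at 94500001 to 96500000 the Hdac3 reads numbered 4337 in OPCs and 7619 at d3 and the p300 reads 4363 and 6214, for ratios of 1.24 and 1.53. The first of its 4 windows depended on a narrow site, since it was one of the 14 that fell below 1.2 without called sites. Chromosome 5 at 147500001 to 149500000 had ratios of 1.24 and 1.33, and chromosome 19 at 54000001 to 56000000 of 1.24 and 1.34. The next by read number were chromosome 8 at 27000001 to 28500000 (1.3 and 1.27) and chromosome 4 at 6500001 to 8000000 (1.39 and 1.29), where the OPC ratio was the higher one.

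On the scale of 10 Mb the richest stretch was chromosome 5 at 147000001 to 157000000, in which 10 of 20 windows were p300-rich. Chromosome 7 at 113500001 to 123500000 and chromosome 19 at 46000001 to 56000000 each held 9 of 20. Taking the richest stretch of each chromosome, the first 5 held 42 of the 266 windows (15.8%) on 1.97% of the windows. Those 5 stretches were picked for their number of members, so a share above that of the windows follows from the choice. By chromosome the share was highest on chromosome 19 (14 of 118 windows, 11.9%), chromosome 10 (26 of 222, 11.7%) and chromosome 12 (8 of 92, 8.70%). It was lowest on chromosome 15 (3 of 213, 1.41%), chromosome 2 (8 of 513, 1.56%) and chromosome 6 (6 of 295, 2.03%). Chromosome 1 had the largest number, 41 of 527. Windows within 10 Mb of either end of the mapped chromosome held 59 members, 22.2% of them on 15.5% of the windows.

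**Figure D3:**
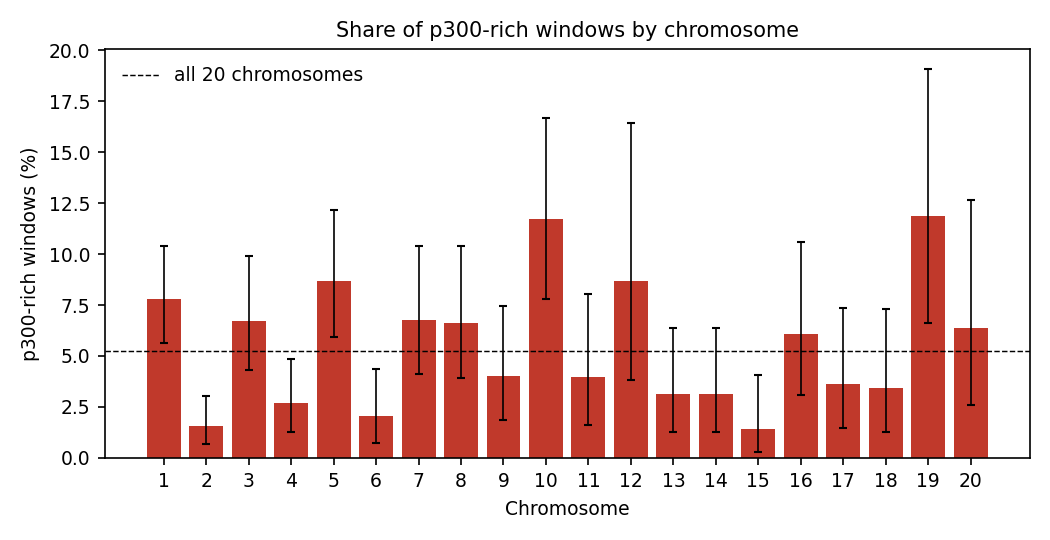
Bars give the percentage of usable 500 kb windows on each of chromosomes 1 to 20 that are p300-rich, with exact 95% intervals that treat windows as independent, and the dashed line the 5.23% of all windows. Chromosomes 10 and 19 stand highest and chromosomes 15 and 2 lowest; since members lie in groups, the intervals are too narrow.

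The p300-rich windows were densely covered in every library, including the Hdac3 libraries whose level is the denominator of the ratio. Their median level was 250 RPM for Hdac3 in OPCs and 245 RPM at d3, against 198 and 201 RPM in the other windows. For p300 the medians were 312 and 321 RPM against 188 and 185 RPM. Read density averaged over the 4 libraries was above the median of all usable windows in 254 of the 266 (95.5%, 92.3 to 97.6%). That average includes the p300 reads of the rule. By Hdac3 alone, 240 (90.2%) were above the median in OPCs and 230 (86.5%) at d3. Windows that passed in OPCs alone or at d3 alone were also dense, with median averages of 260 and 262 RPM against 283 RPM in members. Windows rich in Hdac3 at both stages were the opposite: 16 of 820 (1.95%) were above the median of the 4-library average, and their median levels were 152 and 147 RPM of Hdac3 and 116 and 114 RPM of p300.

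**Figure D4:**
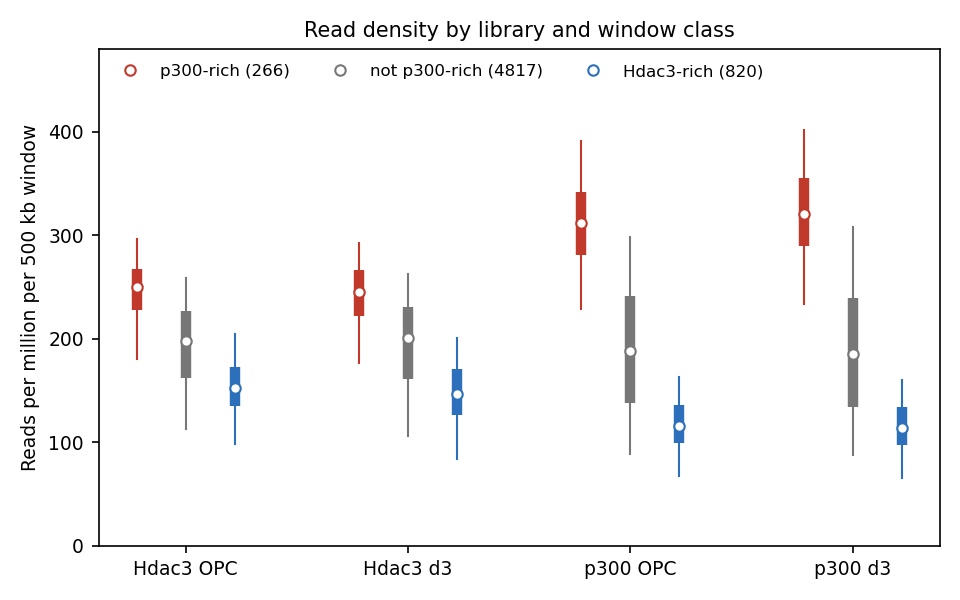
RPM values of 500 kb windows are shown for each library and 3 classes of window; circles are medians, thick bars run from the 25th to the 75th percentile and thin bars from the 5th to the 95th. The 266 p300-rich windows have the highest medians in all 4 libraries and the 820 Hdac3-rich windows, which are a subset of those not p300-rich, the lowest.

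The ratio was higher in denser windows over the whole genome. When the windows were ranked by the mean of the Hdac3 libraries alone and cut into 10 classes of equal size, 4 of 509 windows in the lowest class were p300-rich (0.786%) and 116 of 509 in the highest (22.8%). The median ratios went from 0.793 to 1.16 in OPCs and from 0.840 to 1.19 at d3. With all 4 libraries in the mean, p300-rich windows were 0.196% of the lowest class and 32.2% of the highest, although p300 reads then enter both quantities. The members were thus drawn largely from the most densely read parts of the genome, and the part of read density in the p300 excess was not tested. A few sparse windows also passed, the sparsest being chromosome 5 at 173000001 to 173500000 with 224, 384, 222 and 289 reads in the order above.

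Read score and the share of empty bins differed between the classes as well. The submitters' score for a read, which runs from 8 to 100, averaged 89.0 in the median member and 88.1 in the median of the other windows, and 83.4 in the Hdac3-rich windows. The share of 1 kb bins with no read in any library was 5.20%, 10.6% and 13.8%. Windows that passed at 1 stage alone were close to the members. Their median scores were 89.5 (OPCs alone) and 88.7 (d3 alone), with 6.6% and 6.2% of bins empty. When only reads scoring 50 or more were counted, 248 windows were p300-rich, of which 222 were among the 266.

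Differences between the stages were small for both proteins. Summed over the 266 windows, Hdac3 at d3 was 0.983 times its OPC level (0.978 to 0.987) and p300 was 1.04 times (1.03 to 1.04). The levels entering these sums were 6.52% and 6.4% of Hdac3 reads and 8.25% and 8.55% of p300 reads in OPCs and at d3. With libraries scaled by their median window, the 585 windows then chosen gave 0.977 times for Hdac3 and 1.05 times for p300. Both values lie outside the intervals above, which do not cover the choice of scaling. Hdac3 was higher at d3 in 104 of 266 windows (39.1%, 33.2 to 45.2%), against 51.9% of the other windows, and p300 in 161 (60.5%, 54.4 to 66.4%), against 44.0%. The d3 ratio exceeded the OPC ratio in 203 of the 266 windows (76.3%) and in 46.3% of the others. Above a ratio of 1.3 at both stages, where 29 windows were left, Hdac3 was higher at d3 in 51.7% (32.5 to 70.6%). These changes come from the same counts as the ratios that chose the windows, so they are given as a description.

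Few windows differed by more than 1.2 times between the stages. For Hdac3, 4 members were above that at d3, with 0.216% of all windows, and 6 were lower by that factor, with 1.81% of all windows. For p300, 19 of the 266 (7.14%) were higher, with 2.38% of all windows, and 1 was lower, with 2.12% of all windows. The rule uses p300 at both stages, so nothing is read from these counts. The spread of the change among members, as an SD of log2 ratios, was 0.11 for Hdac3 and 0.14 for p300, while counting error alone would give 0.056 and 0.060. Without replicates the rest cannot be divided between the stages and the handling of single libraries.

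**Figure D5:**
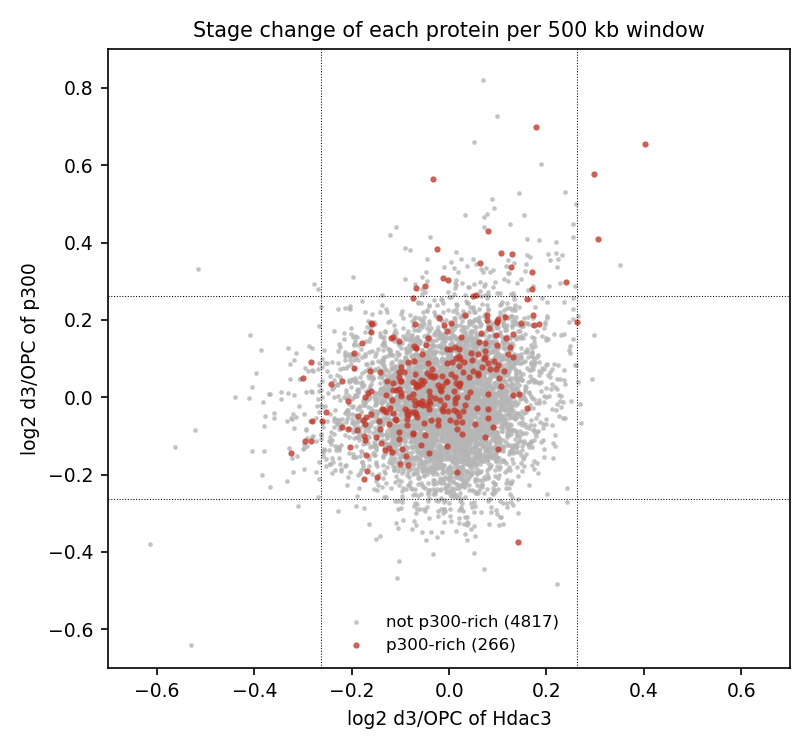
The log2 d3/OPC ratio of Hdac3 (x axis) is plotted against that of p300 (y axis) for each 500 kb window, with dotted lines at changes of 1.2 times in either direction. Most of the 266 p300-rich windows lie within the dotted square, and 3 lie beyond 1.2 times for both proteins.

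The highest d3/OPC ratio of p300 was in the window on chromosome 1 at 262000001 to 262500000 described above, 1.62 times (1.51 to 1.74). The difference was concentrated in the first 3 pieces of 100 kb, where p300 was 1.93, 1.86 and 1.71 times its OPC level and Hdac3 1.03, 1.12 and 1.09 times. The first of these pieces held a called 1 kb site at 262032001 to 262033000, with 8 and 56 p300 reads beside 3 and 12 Hdac3 reads. In the last 2 pieces p300 was 1.16 and 1.33 times its OPC level, and Hdac3 was about as much higher, 1.13 and 1.36 times. The window on chromosome 3 at 147000001 to 147500000 differed less evenly: p300 was 1.94 and 1.55 times its OPC level in the first 2 pieces and 1.003 times in the next, with Hdac3 at 0.999, 0.984 and 1.04 times. In the last 2 pieces p300 was at 1.38 and 1.04 times and Hdac3 at 0.827 and 0.684 times. These pieces were thinly read, with 50 and 85 Hdac3 reads in piece 4 and 32 and 45 in piece 5. For p300 the reads were 33 and 62, and 24 and 34, so no direction is read from them. On chromosome 13 at 45000001 to 45500000, with 257 and 272 RPM of Hdac3 and 328 and 443 RPM of p300, the difference was at the other end: 1.04 times in the first piece and 1.74 in the last. It continued in the adjoining windows from 45500001, with p300 at 1.58 times, and from 46000001, with 1.36 times, whose OPC ratios of 1.19 and 1.16 kept them out of the set.

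Both proteins were higher at d3 on chromosome 17. At 84500001 to 85000000 Hdac3 stood at 198 and 243 RPM and p300 at 239 and 356 RPM, changes of 1.23 times (1.13 to 1.33) and 1.49 times (1.37 to 1.63). At 85000001 to 85500000 Hdac3 stood at 170 and 224 RPM and p300 at 205 and 323 RPM, changes of 1.32 times (1.21 to 1.44) and 1.57 times (1.44 to 1.73). The difference was centred on 3 adjoining pieces from 84800001 to 85100000, with Hdac3 at 1.5, 1.7 and 1.57 times its OPC level and p300 at 1.81, 2.03 and 2.23 times. In the windows before and after, Hdac3 was at 0.933 and 1.04 times and p300 at 0.931 and 1.11 times.

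Only 4 of the 5083 windows exceeded 1.2 times for both proteins, and 3 of them were p300-rich: these 2 and chromosome 1 at 43000001 to 43500000. There Hdac3 measured 220 and 272 RPM and p300 277 and 367 RPM, changes of 1.24 times and 1.33 times. Hdac3 was also higher at d3 on chromosome 2 at 115500001 to 116000000 (1.2 times, p300 1.14 times) and chromosome 1 at 44500001 to 45000000 (1.18 times, p300 1.23 times). Over the 266 windows the log2 changes of the proteins had a Pearson r of 0.52 and a Spearman rho of 0.48, against 0.13 and 0.11 in the other windows and 0.37 and 0.34 in the Hdac3-rich windows. A rule that bounds the ratio at both stages ties the changes to each other, so these values are a description.

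The lowest d3/OPC ratio of p300 was on chromosome 1 at 175500001 to 176000000. Hdac3 measured 282 and 311 RPM there and p300 484 and 374 RPM, so p300 at d3 was 0.772 times its OPC level (0.721 to 0.827), and the ratio went from 1.72, the highest OPC value in the set, to 1.2. The next were chromosome 1 at 135000001 to 135500000 (0.863 times), chromosome 10 at 47500001 to 48000000 (0.867), chromosome 8 at 68500001 to 69000000 (0.875) and chromosome 1 at 205000001 to 205500000 (0.877), each with an interval below 1.

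The lowest d3/OPC ratios of Hdac3 were on chromosome 16 at 18500001 to 19000000, from 244 to 195 RPM (0.798 times, 0.738 to 0.864), chromosome 1 at 95500001 to 96000000 (0.812), chromosome 1 at 209000001 to 209500000 (0.814), chromosome 1 at 95000001 to 95500000 (0.821) and chromosome 7 at 117500001 to 118000000 (0.821). The windows from 95000001 and 95500001 are adjacent and belong to the 4-window run described above. In them p300 was at 1.07 and 1.04 times its OPC level, and both of those intervals include 1.

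Called on the same reads as the rule used, narrow p300 sites were denser per length in the p300-rich windows than elsewhere. A 1 kb bin was called a site where its reads, with the libraries thinned to equal depth, passed a Poisson level of 1e-05 and 3-fold over the local background. Of the 434 p300 sites of either stage in usable windows 48 lay in members (11.1%, 8.27 to 14.4%), which hold 5.23% of the windows. That is 36.1 sites per 100 Mb, against 16.0 in the other windows. By library the share was 36 of 329 for p300 in OPCs (10.9%) and 24 of 269 at d3 (8.92%), and for Hdac3 it was 14 of 351 in OPCs (3.99%) and 28 of 396 at d3 (7.07%). Set against the members' 8.25% and 8.55% of p300 reads, the shares of p300 sites in OPCs (7.78 to 14.8%) and at d3 (5.8 to 13%) did not differ beyond counting error. Sites are called on p300 reads that also entered the rule. With members chosen on plus-strand reads (5.49% of windows) and sites called on minus-strand reads the share was 16 of 233 (6.87%, 3.98 to 10.9%). With the strands exchanged it was 22 of 262 (8.4%, 5.34 to 12.4%), where members were 5.14% of windows. The first interval includes the members' share of windows, and the second lies just above it.

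Sites with a high mean score were distributed more unevenly. With a mean score of at least 80, 27 of 172 p300 sites lay in members (15.7%, 10.6 to 22%). Another 6 (3.49%) lay in the 820 Hdac3-rich windows, which held 14.5% of the p300 sites of any score. These sites were called on reads that also entered the rule, and the split by strand was not run for them. Read scores also differed between the classes, with medians of 89.0 in members and 83.4 in Hdac3-rich windows. The share of p300 sites is therefore a description only. For Hdac3 at d3 the share in members was 21 of 169 (12.4%, 7.86 to 18.4%). For Hdac3 in OPCs it was 0 of 33, which allows a share of up to 10.6%. Sites called in all 4 libraries showed no such concentration, with 7 of 126 in members (5.56%, 2.26 to 11.1%). Among the 48 p300 sites in members 35 (72.9%) were called in 1 library and 11 (22.9%) were also called for Hdac3, against 45.9% and 50.3% of the 386 elsewhere. The rule asks for more p300 than Hdac3 reads and these sites were called on the same reads, so this contrast is a description only. In all, 39 members (14.7%) held a p300 site, where 321 of all 5083 usable windows (6.32%) did. Of the 39 members 31 held 1 site, 7 held 2 and 1 held 3, and the other 227 members held none.

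The p300 sites with the most reads had mean scores under 80. Read numbers of sites, here and below, are not scaled to library depth, which differed between the stages. The deepest was on chromosome 18 at 24374001 to 24375000, with 82 and 215 p300 reads (15.8-fold and 21.1-fold over its background) beside 41 and 44 Hdac3 reads. Scaled, these were 24.4 and 47.0 RPM of p300 and 9.85 and 5.14 RPM of Hdac3. This site was called in all 4 libraries. It was followed by chromosome 3 at 8834001 to 8835000, with 46 and 127 p300 reads (13.7 and 27.8 RPM) beside 21 and 19 Hdac3 reads (5.04 and 2.22 RPM). Both lie in windows named above that fell below 1.2 without called sites. Among sites with a mean score of at least 80, which were shallower, the highest fold for p300 in OPCs was on chromosome 20 at 8202001 to 8203000, with 10 p300 reads in OPCs (6.85-fold over its background) and 4 at d3, beside 2 and 6 Hdac3 reads. Chromosome 11 at 66547001 to 66548000 had 15 p300 reads in OPCs (6.82-fold) and 1 at d3, beside 1 and 8 Hdac3 reads. Chromosome 4 at 120171001 to 120172000 had 12 and 9 p300 reads (6.25-fold and 3.10-fold). The next were chromosome 1 at 94886001 to 94887000, with 15 and 13 reads (5.77-fold and 2.95-fold), and chromosome 7 at 138011001 to 138012000, with 12 and 9 reads (5.71-fold and 3.08-fold). In these last 3 sites the d3 reads were also above the local background, although the call was made in OPCs alone.

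Among sites with a mean score of at least 80, the highest fold for p300 at d3 was on chromosome 20 at 43908001 to 43909000, with 3 p300 reads in OPCs and 14 at d3 (6.36-fold), inside the leading window of chromosome 20 above. All 3 sites of the member that held that many lay on chromosome 2 between 120500001 and 121000000. Of these, 120706001 to 120707000 had 6 and 16 p300 reads (2.65-fold and 5.80-fold) and 4 and 17 Hdac3 reads, and 120847001 to 120848000 had 4 and 17 p300 reads. The remaining ones were chromosome 1 at 80253001 to 80254000 (3 and 12 p300 reads), inside another leading window, and chromosome 5 at 147986001 to 147987000 (4 and 18). Each of these 10 sites was called in 1 library only, and the call favours a high value in that library.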

How the data were processed

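ChIP-seq reads for Hdac3 and p300 in rat OPCs and at d3 were deposited by the authors as lists of aligned reads, 1 library per group. Coordinates are taken as rn4, the build in the submitters' processing notes, which also list MACS 1.4.0 but not what it was used for. The aligner, the filters and any pooling, not given in the sources used here, could not be checked. A score was deposited with every read, on a scale that no source states. No 5' end occurred more than 1 time per strand in a library.

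Reads on chromosomes 1 to 20 were counted by 5' end in 500 kb windows from position 0 and scaled to the library's total there. For 1 kb sites, reads were moved 100 bp and libraries thinned (seed 1) to 3364825 reads; local background was whichever was highest of the library-wide mean and the means over 10 kb and 50 kb around the bin. Window choice, intervals and calls were tested on simulated data. Python 3.11.15, numpy 2.4.6, pandas 2.3.3 and scipy 1.17.1 were used. With 1 library per group no test between groups was made. Windows, comparisons and alternatives were chosen with earlier results of these data known. Named windows are the 10 of highest geometric mean ratio, the 5 nearest the threshold on each side, the 5 largest and smallest stage changes of each protein, the 5 longest runs, and the 3 chromosomes with the highest and lowest shares; named sites are the 5 of highest fold per p300 library with a mean score of at least 80. Other stretches, windows and sites named were chosen after their values were seen. Gene lists and base composition were not run, because rn4 sequence and gene positions were not used here.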

Additional observations from a re-analysis of the deposited data

How the results depend on the processing

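The number of p300-rich windows depended on the setting. Against 266 it was 585 when libraries were scaled by their median window, 954 at a ratio above 1.1, 29 above 1.3, 604 with windows of 250 kb and 109 with windows of 1 Mb; it lay between 248 and 279 under the other 6 alternatives. The share with a p300-rich neighbour was 68.2%, 78.6%, 27.6%, 54.3% and 40.4% in the same order. The share above median read density lay between 93.7% and 100%, the latter at a ratio above 1.3. Hdac3 was higher at d3 in 51.7% of windows above 1.3 (32.5 to 70.6%), in 45.5% of 250 kb windows and in 32.1% of 1 Mb windows. The interval above 1.3 contains both 50% and the 39.1% of the main setting. The 29 windows there thus do not show whether the lower Hdac3 at d3 held. For p300 the share higher at d3 was 67.7% with the median scaling, 69.7% with 1 Mb windows, 67.1% with windows starting 250 kb later and 66.7% when chosen on minus-strand reads. This p300 share was above 50% under all 11 alternatives, but above a ratio of 1.3 it was 55.2% with an interval of 35.7 to 73.6%. The share of p300 sites in members was 20.0%, 26.3%, 1.61% and 8.05% with the median scaling, at 1.1, at 1.3 and with 1 Mb windows, 6.87% with members chosen on the plus strand and sites called on the minus strand, 8.24% at a Poisson level of 1e-08 and 15.7% for sites with a mean score of at least 80. Causes of these differences were not tested, apart from the set's size, which the threshold sets. Depth limits what single windows and sites can show: a window near the threshold had an interval of 1.12 to 1.29, and the named sites with a mean score of at least 80 held 10 to 18 reads in the library that called them. No paired analysis was possible because each group holds 1 library.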

Other observations

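Chromosome X lies outside the rule and was measured in the same way. None of its 320 usable windows exceeded 1.2 at both stages. The highest ratio of a window was 1.28 in OPCs and 1.099 at d3, and the medians were 0.856 and 0.701, against 0.974 and 0.934 on chromosomes 1 to 20. In 127 of the 320 windows Hdac3 exceeded p300 by more than 1.2 times at both stages.

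Windows that passed at 1 stage alone kept part of the excess at the other. Summed over the 183 that passed in OPCs alone, the ratio was 1.25 in OPCs and 1.11 at d3, and p300 reads were 5.04% and 4.71% of their libraries. Over the 386 that passed at d3 alone it was 1.13 and 1.3004, with 10.4% and 11.5% of p300 reads. Of the latter 145 (37.6%) lay directly beside a p300-rich window, and 34 (18.6%) of the former.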
